A study of Mus musculus with 6 samples.

Results

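Nonclassical monocytes are the Ly6c-low blood monocytes that crawl along the endothelium of small vessels, and here they were picked out of sorted live CD45+ lung cells by a rule on marker genes. A cell was taken when at least 3 of the 7 genes Ace, Treml4, Cd300e, Adgre4, Eno3, Ceacam1 and Spn had at least 1 count, with at least 1 of Ace, Treml4 and Cd300e among them. Cells with 2 or more counts of C1qa or Cd79a, or with any count of Cd3e, Ncr1, Siglech or Cxcr2, were left out. The members were thus chosen by measured counts of these genes in each cell. The rule found 881 cells among 23322 cells kept, 374 of 11106 in the isotype library and 507 of 12216 in the PD-1 agonist library. All mice were 6 to 8 weeks old and of a humanized PD-1 strain, so controls and treated mice both carry the humanized receptor. The series title places the study in neutrophilic asthma, and the sources used here do not name the disease model, the antibodies, the doses or the times.

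The groups were isotype-treated and PD-1 agonist-treated mice. The labels list 3 isotype and 3 agonist mice, tagged by cell hashing and mixed, yet the 6 tables do not behave as 6 separate samples. Tables of the same treatment shared between 2373 and 2736 cell barcodes for each pair, against 37 barcodes shared between the treatments, none of them among the nonclassical cells. Each barcode was therefore used once per treatment, which leaves 1 independent sample per treatment and no test between them. Intervals given here are exact 95% intervals that cover counting error only, and the treatment and the library cannot be told apart. Among the nonclassical cells, 216 isotype barcodes stood in 1 table, 125 in 2 and 33 in 3, and the agonist numbers were 305, 175 and 27. Of the barcodes measured in both tables of a pair and passing the rule in either, between 59.0% (46 of 78) and 76.3% (71 of 93) passed in both.

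Nonclassical monocytes arise from classical Ly6c-high monocytes, and their formation and survival depend on the nuclear receptor Nr4a1. They hold to the vessel wall through the integrin LFA-1, carry much of the fractalkine receptor Cx3cr1 and of the Fc receptor Fcgr4, and take up particles and debris from the endothelial surface. The lung capillary bed holds many of them. Classical monocytes, in contrast, leave the blood through Ccr2 and can become macrophages or dendritic cells in the tissue.

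The genes that chose the cells are given first, as a description. Levels are in CPM, a gene's counts summed over the cells of a class and scaled to a common total. Ace, the angiotensin-converting enzyme, was at 540 CPM in the isotype library and at 685 CPM in the agonist library, with a count in 84.2% and 91.1% of the nonclassical cells. Treml4, a receptor that binds dead cells, was at 290.2 and 290.1 CPM, and Cd300e, an activating receptor of the CD300 family, at 191 and 203 CPM. Ace was thus the marker that most cells carried, and all 3 of these genes were detected together in 25.4% and 25% of the cells. In cells with a count of Cd3e, the T cell receptor subunit, and none of Cd79a or C1qa, Ace was detected in 1.71% and 2.5%, Treml4 in 1.5% and 1.95% and Cd300e in 0.830% and 0.730%. The median totals per cell were 4130 and 3778 counts in the nonclassical cells and 3542.5 and 3096 in the Cd3e-positive cells.

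The threshold of 3 markers had cells close to it on both sides. Just outside it, 74 isotype and 95 agonist cells had exactly 2 of the 7 markers and met every other condition, and just inside it 76 and 95 cells had exactly 3. Over 30 nonclassical identity genes that the rule did not use, the summed level was 8466 CPM in the isotype cells with 2 markers and 11841 CPM in those with 3. It was 22022 CPM in the isotype cells with all 7. In the agonist library the same values were 9440, 12940 and 19899 CPM. Nr4a1 itself went from 517 CPM at 2 markers to 1499 CPM at 7 markers in the isotype library and from 487 to 1170 CPM in the agonist library. Pglyrp1, an antibacterial peptidoglycan-binding protein, went from 57.7 to 650 CPM and from 80.4 to 531 CPM. Ccr2, which brings classical monocytes out of the bone marrow, ran the other way, from 774 to 208 CPM and from 549 to 229 CPM. Over 26 classical monocyte genes the summed level was 35528 CPM at 2 markers, 38097 CPM at 3 and 25151 CPM at 7 in the isotype library. In the agonist library it was 33870, 33471 and 21460 CPM. The steps were not even: at 6 markers Ccr2 was at 165 and 162 CPM, below its values at 7, and agonist Nr4a1 was at 1324 CPM, above its value at 7. Cells just inside the threshold thus had less nonclassical and more classical RNA per count than cells with all 7 markers.

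**Figure D1:**
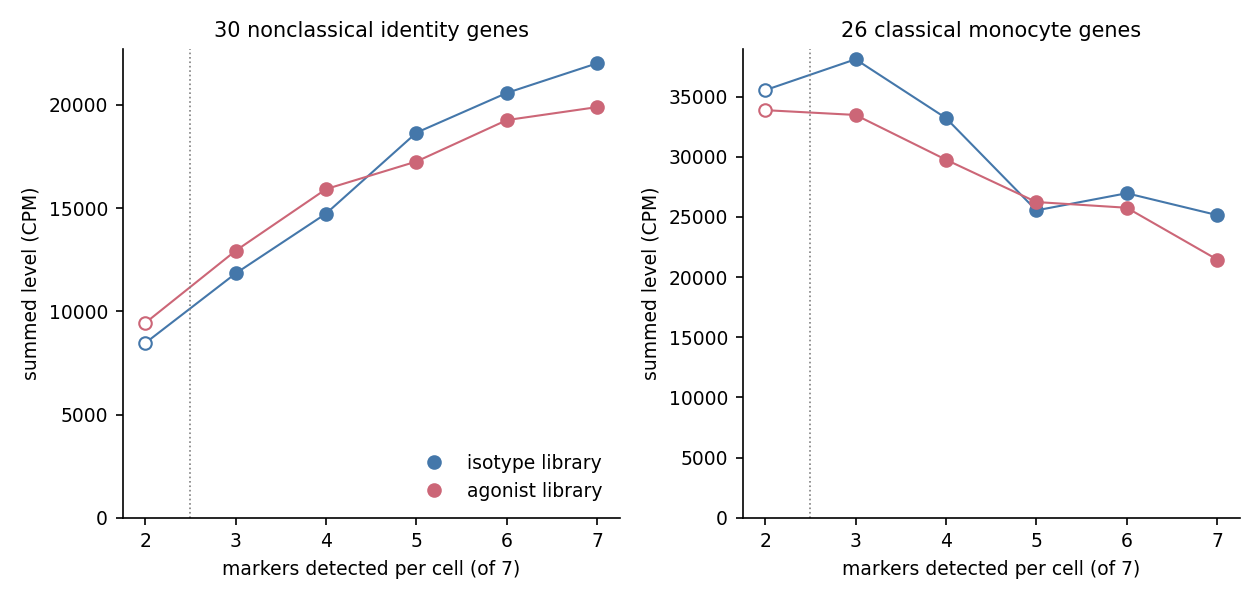
Summed level, in CPM, of 30 nonclassical identity genes (left) and 26 classical monocyte genes (right) that the rule did not use, against the number of the 7 markers detected per cell, for the isotype (blue) and agonist (red) libraries. Open points left of the dotted line are the cells with 2 markers outside the rule; the identity genes go from 8466 to 22022 CPM in the isotype library and from 9440 to 19899 CPM in the agonist library.

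Ly6c2, whose product is the Ly6C surface marker of classical monocytes, was not absent from these cells. It had a count in 48.4% of the isotype and 42.8% of the agonist nonclassical cells, at 1024 and 636 CPM. Classical monocytes had 2327 and 2037 CPM, but a Ly6c2 count was required to choose them, so a higher level there follows from the choice. Cd3e-positive cells had a Ly6c2 count in 48.1% and 41.8%, at 925 and 734 CPM, so for this gene they are not a low comparison. Nonclassical cells with a Ly6c2 count were deeper than those without, with median totals of 5885 against 2796 counts in the isotype library and 5719 against 2739.5 in the agonist library. The cells with Ly6c2 also had more fibronectin (Fn1), at 560 against 24.9 CPM and 523 against 30.1 CPM. They had less of the scavenger receptor Cd36, at 99.8 against 485 CPM and 61.9 against 304 CPM. Pooled levels of classical and nonclassical genes thus differed between parts of the population. They do not tell a gradient over single cells from a mix of different cells, which was not tested. The part of depth in the Ly6c2 split was not tested either.

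Nonclassical monocytes made up 3.37% of the kept isotype cells (exact binomial interval 3.04% to 3.72%) and 4.15% of the kept agonist cells (3.80% to 4.52%). Per table the isotype shares were 3.38%, 3.05% and 3.11%, and the agonist shares 4.15%, 4.06% and 4.15%. No agonist table lay below an isotype table, but tables of a treatment share cells and do not count as replicates. The log2 ratio of the shares was 0.30 (0.11 to 0.50). Classical monocytes, taken by an analogous rule on Ly6c2, Ccr2, F13a1, Vcan, Fn1 and Ms4a4c, numbered 429 in each library, or 3.86% (3.51% to 4.24%) and 3.51% (3.19% to 3.85%). Their rule required a count of Ly6c2 and of F13a1, Vcan or Fn1, and left out any cell with a count of Ace, Treml4 or Cd300e. There were 0.872 nonclassical cells per classical monocyte in the isotype library and 1.18 in the agonist library, a log2 difference of 0.44 (0.16 to 0.72). Of both monocyte classes together, 46.6% (43.1% to 50.1%) and 54.2% (50.9% to 57.4%) were nonclassical.

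Depth differed between the libraries, with a median of 2716.5 counts per kept isotype cell and 2362 per kept agonist cell. After each cell was thinned to 1500 counts, which left out 2310 and 3269 shallower cells, the shares were 2.67% and 3.61%. Scrublet marked 13 (3.48%) and 30 (5.92%) of the nonclassical cells as doublets, below the 7.24% and 8.58% it marked among all kept cells. The exclusion genes of the rule also take out doublets with other cell types, so these rates do not compare like with like. Among cells removed for Cxcr2 it marked 19.3% and 29.9%. The exclusion genes removed 193 isotype and 227 agonist cells that met the marker part of the rule, 135 and 144 of them for Cxcr2, 25 and 31 for C1qa and 7 and 32 for Cd79a, and some cells failed several. Ace, a gene of the rule, was at 540 and 685 CPM in the nonclassical cells and at 7.14 and 12.8 CPM in Cd3e-positive cells. Treml4 was at 290.2 and 290.1 CPM in the nonclassical cells. Members with Ace as the only one of Ace, Treml4 and Cd300e numbered 74 and 103. Those with only Treml4 numbered 33 and 23, and those with only Cd300e 8 and 9. The part of depth, exclusions, sorting and marker levels in the difference of the shares was not tested.

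**Figure D2:**
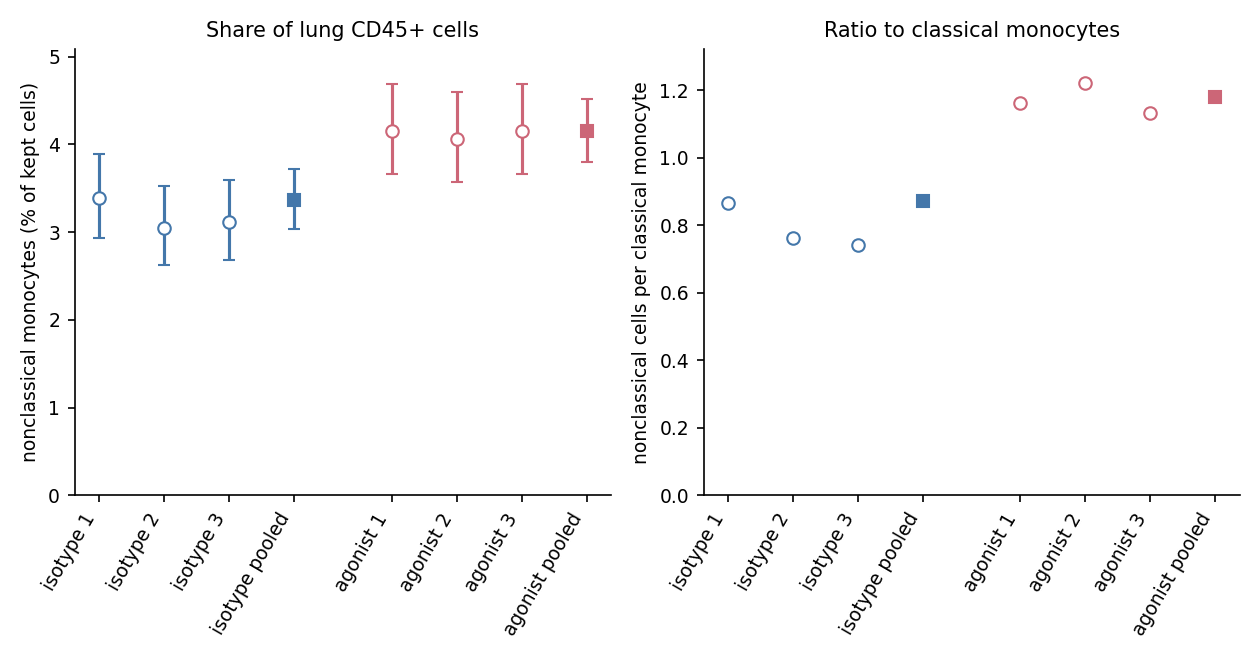
Nonclassical monocytes as a percentage of kept lung CD45+ cells with exact 95% binomial intervals (left) and per classical monocyte (right), for each table (open circles) and for each treatment with every barcode used once (squares). The pooled share is 3.37% in the isotype and 4.15% in the agonist library, and the pooled ratio 0.872 and 1.18.

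Set against classical monocytes, the nonclassical cells had more RNA of the integrin subunit Itgal, the defence protein Pglyrp1, the scavenger receptor Cd36 and the phosphatase Dusp16, and less of the enzyme Gatm, the complement receptor C3ar1 and the chemokine Ccl2. Of 5474 genes with at least 100 counts over both classes in each library, 168 (3.07%) were at least 2-fold higher in nonclassical cells in both libraries and 128 (2.34%) at least 2-fold lower. Log2 ratios are between summed counts scaled by TMM, a method that sets the bulk of genes to no difference. Of the 30 identity genes outside the rule, 17 were at least 2-fold higher in both libraries and none lower, with a median log2 ratio of 1.42 in the isotype and 1.43 in the agonist library, against medians of -0.01 and 0.01 over all genes measured. The identity list names genes known for these cells, and it was drawn up with earlier results of these data known.

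**Figure D3:**
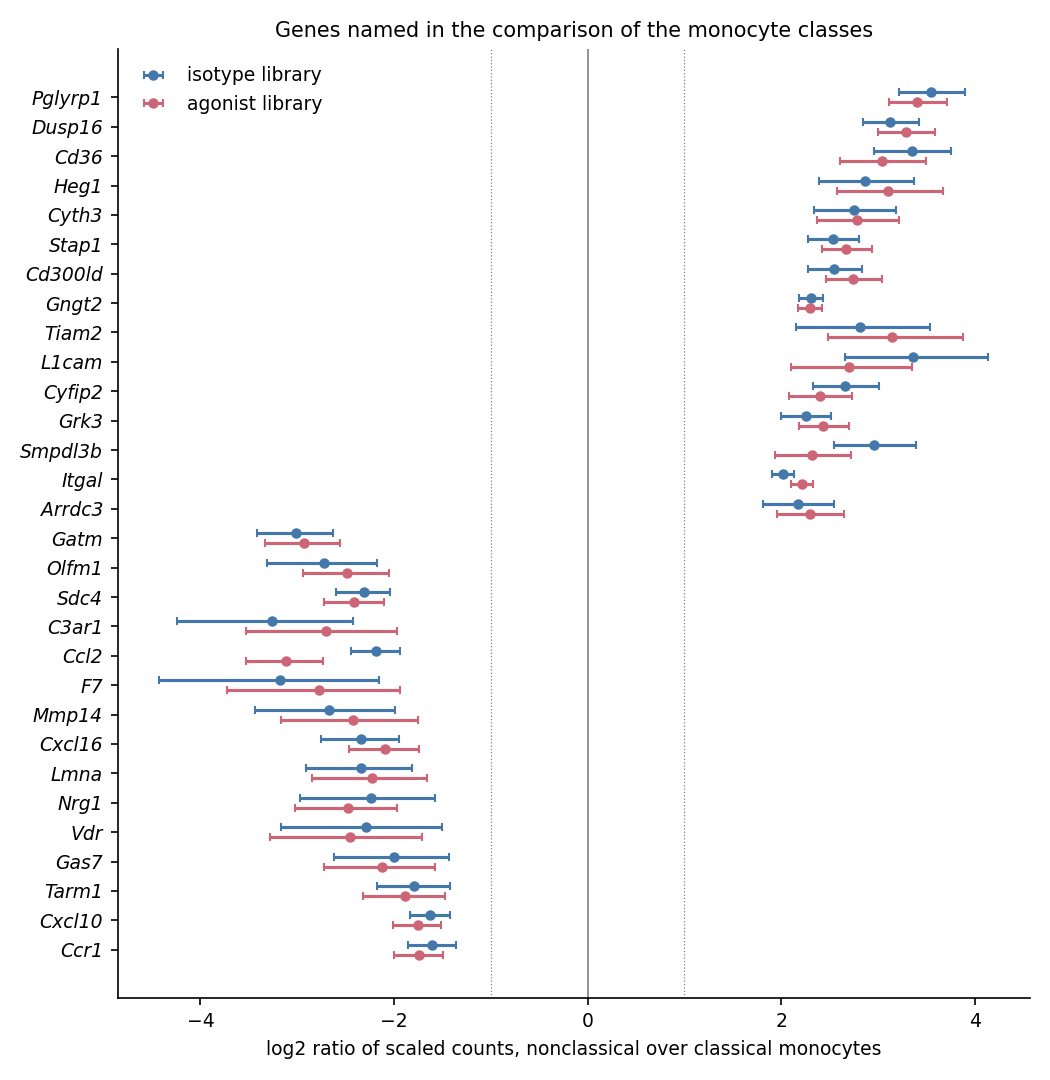
Log2 ratio of scaled counts, nonclassical over classical monocytes, with exact 95% intervals for counting error, for the 15 genes named in each direction in the isotype (blue) and agonist (red) libraries. Dotted lines mark a 2-fold difference; every gene drawn lies beyond 2-fold on the same side in both libraries, from 3.55 for Pglyrp1 to -3.26 for C3ar1 in the isotype library.

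Among the adhesion genes, Itgal, the alpha chain of LFA-1 (chr7:127296260-127335138, plus strand, GENCODE vM21 gene model on GRCm38, the assembly also called mm10), stood out in level and ratio. It was at 1338 CPM in nonclassical and 330 CPM in classical isotype monocytes, and at 1516 and 327 CPM in the agonist library. The log2 ratios were 2.02 (1.90 to 2.13) and 2.21 (2.10 to 2.33), and 97.1% and 97.4% of nonclassical cells had a count. Its beta chain partner Itgb2 was higher by 0.69 and 0.73, and Itga4, the alpha chain of VLA-4, by 1.04 and 0.99. Some genes of the pathway that brings LFA-1 into its binding state also lay above classical monocytes. Rap1a and Rap1b, the small GTPases of this pathway, were at 0.89 and 0.90 in the isotype library, and their activator Rasgrp2 at 1.20. Apbb1ip, which links Rap1 to talin, was at 1.05, and Tln1, talin itself, at 0.59. Of 23 measured adhesion genes, 4 were at least 2-fold higher and 1 at least 2-fold lower in both libraries, beside 3.07% and 2.34% of all genes, with median log2 ratios of 0.42 and 0.44.

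Some of the other leading genes are known from cell contacts and the cytoskeleton. L1cam, a cell adhesion molecule (chrX:73853778-73896105, minus strand), had log2 ratios of 3.36 and 2.70, and Heg1, a transmembrane protein known from endothelial junctions, 2.87 and 3.10. The actin regulators Tiam2 and Cyfip2, which act on the Rac GTPase and its WAVE complex, had ratios of 2.81 and 3.14, and of 2.66 and 2.40. Cyfip2 was also at 189 and 180 CPM in Cd3e-positive cells, against 220 and 211 CPM in nonclassical cells. Cyth3, an activator of Arf GTPases, was at 2.75 and 2.78. Pecam1, the endothelial and leukocyte junction protein, was higher by 1.85 and 1.61. Endothelial markers summed to 18.2 and 51.7 CPM in nonclassical cells and to 15.1 and 11.6 CPM in classical monocytes, so their sum was highest in the agonist nonclassical cells. The endothelial cadherin gene Cdh5 was at 1.21 and 3.38 CPM in nonclassical cells and the claudin gene Cldn5 at 0 and 2.90 CPM. Most of the agonist sum thus lay in other genes of the 10 listed endothelial markers. The part of endothelial RNA in these results was not tested.

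Pglyrp1 had the widest ratios of the named higher genes, and some single genes of lipid handling were also far apart. Of 25 measured genes of scavenging and lipid handling, 2 were at least 2-fold higher and 3 lower in both libraries. Over all genes the shares were 3.07% and 2.34%. The median log2 ratios of the list were 0.04 and 0.16, so the list as a whole did not mark these cells. Pglyrp1 (chr7:18871331-18890459, plus strand) was at 375 against 32.1 CPM in the isotype library and 446 against 42.1 CPM in the agonist library, for log2 ratios of 3.55 (3.21 to 3.89) and 3.40 (3.11 to 3.71). Cd36 (chr5:17781690-17888801, minus strand) was at 243 against 24.0 CPM and 169 against 20.6 CPM. Both genes were low in classical monocytes of both libraries. Cd36 was also detected in 1.56% and 1.70% of Cd3e-positive cells, against 45.5% and 34.9% of nonclassical cells. Pglyrp1 was detected in 21.1% and 19.4% of Cd3e-positive cells, at 92.2 and 79.1 CPM, above classical monocytes, and in 56.4% and 61.7% of nonclassical cells. Fabp4, a fatty acid carrier, had log2 ratios of 7.07 and 5.04, and its transcriptional regulator Pparg 2.84 and 3.19. Classical monocytes had 0.773 and 3.30 CPM of Fabp4, so its ratios rest on few counts in that class, and Pparg was under the count minimum of the class comparison. Smpdl3b, a membrane enzyme that acts on lipids and damps Toll-like receptor signals, was at 2.96 and 2.32. Ear2, an eosinophil-type ribonuclease long used as a marker of these cells, was at 2.54 and 2.61, although it shares 60.5% of its 31-base words with other genes, so its reads may be split among paralogs.

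Several named genes act in signalling. Dusp16, a phosphatase of JNK and p38 kinases (chr6:134715468-134792625, minus strand), was at 402 against 46.0 CPM and 439 against 45.0 CPM, with log2 ratios of 3.13 (2.84 to 3.42) and 3.29 (3.0 to 3.59). Gngt2, a G protein gamma subunit, was at 1396 against 282 CPM and 1405 against 286 CPM, and was detected in 96.3% and 93.9% of nonclassical cells. Its log2 ratios were 2.31 (2.19 to 2.43) and 2.30 (2.18 to 2.42), within each other's intervals. Grk3, a kinase that switches off G protein-coupled receptors, was at 2.25 and 2.44. Arrdc3, an arrestin-like adaptor for receptor uptake, was at 2.17 and 2.30. The adaptor Stap1 was at 2.53 and 2.67, and Cd300ld, a receptor of the CD300 family, at 2.55 and 2.74. S1pr5, a sphingosine-1-phosphate receptor, was at 3.50 and 4.43, but under the count minimum of the class comparison.

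The regulators of this cell type followed. Nr4a1 was at 1211 CPM in nonclassical and 476 CPM in classical isotype monocytes, and at 1137 and 399 CPM in the agonist library. It had a count in 92.0% and 90.7% of nonclassical cells against 32.7% and 31.2% of Cd3e-positive cells. With every cell thinned to 1500 counts the nonclassical values were 72.6% and 74.0%, and those of Cd3e-positive cells 16.7% and 17.8%. Pou2f2, a POU-domain factor, was higher by 1.98 and 1.81, Klf2, a factor of quiescence and vascular contact, by 1.39 and 1.34, and Tcf7l2, the Wnt pathway factor, by 1.92 in both libraries. Hes1, a target of Notch signals, was higher by 2.24 and 1.74, and Id2, an inhibitor of helix-loop-helix factors, by 1.52 and 1.78. Maf, a factor of macrophage maturation, was lower, at -1.26 and -0.33. Of 42 measured factors, 7 were at least 2-fold higher and 3 at least 2-fold lower in both libraries, beside 3.07% and 2.34% of all genes.

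Receptors known for these cells were higher as well. Cx3cr1 was at 282 against 107 CPM and 239 against 128 CPM, with log2 ratios of 1.40 and 0.90. Fcgr4, the receptor for IgG2 immune complexes, was at 571 against 188 CPM and 532 against 121 CPM. Csf1r, the receptor for the survival factor M-CSF, was higher by 0.73 and 0.60, and Bcl2, which blocks cell death, by 2.17 and 1.63. Fcgr1 was at -1.04 and -0.88 and the inhibitory receptor Fcgr2b at -0.84 and -0.85. Of 25 measured Fc receptor and signalling adaptor genes, 3 were at least 2-fold higher and none lower in both libraries. Over all genes the shares were 3.07% and 2.34%. The medians of the list were 0.36 and 0.30. Lair1, a collagen receptor with inhibitory motifs, was at 1.44 and 1.68 and Cd300a, an inhibitory receptor of the CD300 family, at 0.85 and 1.03.

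On the lower side, Gatm was among the leading genes. Gatm, an enzyme of creatine synthesis (chr2:122594467-122611303, minus strand), was at 35.8 against 288 CPM and 30.9 against 236 CPM, with log2 ratios of -3.01 (-3.42 to -2.62) and -2.93 (-3.33 to -2.56). In interstitial macrophages, taken by C1qa and C1qb with Mrc1 or Folr2, Gatm was at 1008 and 926 CPM. The order for Gatm was thus macrophages, classical monocytes and nonclassical monocytes in both libraries. A minority of classical monocytes had a count of Gatm, 33.8% and 28.2%, against 91.3% and 91.4% of the macrophages. For C3ar1 these values were 16.8% and 14.9% against 66.5% and 62.3%. The rule for classical monocytes allowed 1 count of C1qa, and the part of macrophage-like cells among them was not tested. C3ar1, the receptor for complement C3a, had ratios of -3.26 and -2.71, which were -4.68 without the third isotype table and -2.0 without the first agonist table. F7, coagulation factor VII, was at -3.18 and -2.77. Mmp14, a membrane-bound matrix protease, had ratios of -2.67 and -2.42, Sdc4, a heparan sulfate proteoglycan, -2.31 and -2.41, and Lmna, the nuclear lamin, -2.34 and -2.23. Mmp14 was at -3.60 without the second isotype table and -1.82 without the first agonist table, and Sdc4 at -3.12 without the latter. Olfm1, a secreted glycoprotein, was at -2.72 and -2.48, and the growth factor Nrg1 at -2.24 and -2.48. Vdr, the vitamin D receptor, was at -2.29 and -2.45.

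Several genes of chemokines and their receptors were lower, but not the lists as a whole. Of 19 measured genes of inflammatory cytokines and chemokines, 5 were at least 2-fold lower and none higher in both libraries, beside 2.34% and 3.07% of all genes, with median log2 ratios of -0.24 and 0.10. Of 11 measured chemoattractant receptors, 4 were lower and 1 was higher, with medians of -0.32 and -0.12. Ccl2, the ligand that draws Ccr2-bearing cells, was at 91.1 CPM in nonclassical and 415 CPM in classical isotype monocytes, and at 28.5 and 248 CPM in the agonist library. The log2 ratios were -2.19 (-2.45 to -1.94) and -3.12 (-3.53 to -2.73), and they were -2.83 without the third isotype table and -3.93 without the third agonist table. Cxcl10, an interferon-induced ligand of Cxcr3, was at -1.63 and -1.76, and Cxcl16 at -2.34 and -2.09, with -3.19 without the third isotype table. Ccr1, a receptor for inflammatory chemokines, was at -1.6 and -1.74. Tarm1, an activating myeloid receptor, was at -1.79 and -1.89 and Gas7 at -2.0 and -2.13. Not all cytokine genes were lower: Il1b was at 1268 and 1267 CPM in nonclassical cells, 0.46 and 0.82 above classical monocytes on the log2 scale.

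Antigen presentation split by class. Of 12 measured genes of MHC class II presentation, 4 were at least 2-fold lower in both libraries and none higher, beside 2.34% and 3.07% of all genes, with median log2 ratios of -0.73 and -0.96. H2-Ab1, a class II chain, was at -0.70 and -0.96, and Ifi30, a lysosomal thiol reductase that prepares antigen, at -1.05 and -1.30. Of 15 measured genes of MHC class I presentation, 1 was at least 2-fold higher and none lower, with medians of 0.14 and 0.18. H2-D1 and H2-K1, the classical class I heavy chains, were at 0.42 and 0.50 in the isotype library. Oxidative phosphorylation genes had medians of -0.31 and -0.34, with none of 33 measured genes beyond 2-fold. Complement and coagulation genes had medians of -0.49 and -0.50, with 1 higher and 4 lower of 17 measured, beside the same shares of all genes. Of 23 measured classical monocyte genes outside the rule, 6 were at least 2-fold lower and 1, Cxcr4, at least 2-fold higher, with medians of -0.62 and -0.56. Plac8 and Ifitm3, both on that list, were at 0.27 and 0.14 in the isotype library.

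The comparison of the agonist with the isotype library within nonclassical monocytes asks what the treatment was accompanied by in these cells, with 1 sample on each side. Of 5220 genes with at least 100 counts over both libraries, 220 (4.21%) were at least 1.5-fold higher and 115 (2.20%) at least 1.5-fold lower in the agonist library. In classical monocytes the same rule gave 278 (4.52%) and 151 (2.45%) of 6157 genes. Identity genes differed in both directions by small amounts. Of 30 measured identity genes none was at least 1.5-fold higher and 1, Rhob, was at least 1.5-fold lower, with a median log2 ratio of -0.01 against 0.00 over all genes measured. For 7 of them the whole interval lay above 0 and for 9 below 0. Nr4a1 was at -0.09 (-0.18 to 0.00) and Gngt2 at 0.01 (-0.07 to 0.09). Cd36, at -0.52 (-0.74 to -0.31), and Ear2, at 0.50 (0.36 to 0.64), were the identity genes other than Rhob with the widest differences.

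**Figure D4:**
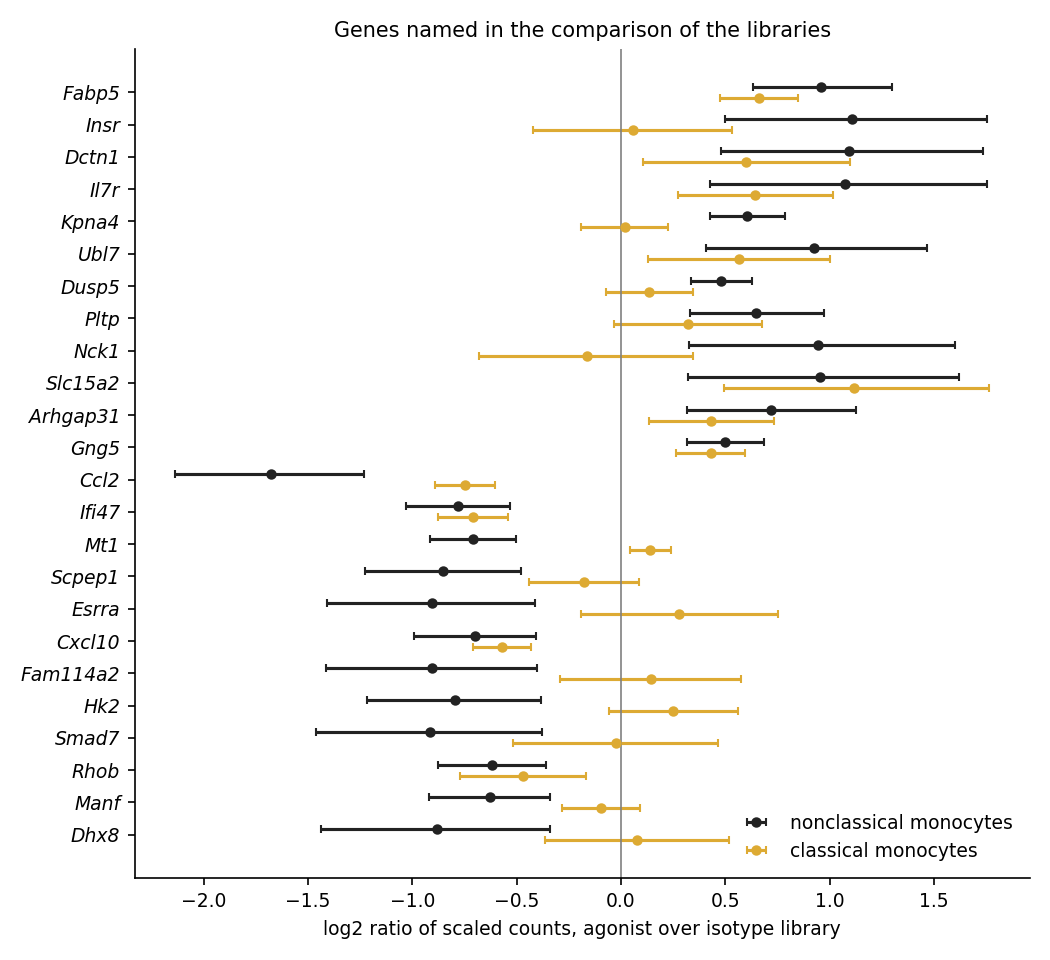
Log2 ratio of scaled counts, agonist over isotype library, with exact 95% intervals for counting error, for the 12 genes named in each direction, in nonclassical (black) and classical (yellow) monocytes. In nonclassical cells the values run from 1.11 for Insr to -1.67 for Ccl2; for Kpna4 and Hk2 the classical value lies on or across the 0 line.

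Ccl2 was the gene with the widest lower value among those named. It was at 91.1 CPM (77.1 to 107) in the isotype and 28.5 CPM (21.7 to 36.8) in the agonist library, a log2 ratio of -1.67 (-2.13 to -1.23). It had a count in 11.5% of isotype and 5.33% of agonist nonclassical cells, and in 2.75% and 1.83% of Cd3e-positive cells. Few cells carried it, 1 isotype cell held 21.3% of its counts there, and without the third agonist table the log2 ratio was -2.64. In classical monocytes Ccl2 was at 415 and 248 CPM, a log2 ratio of -0.75 (-0.89 to -0.60). The intervals of the classes do not overlap, but they leave out the spread between cells, and the difference between the classes was not tested. Among the measured cytokine and chemokine genes, 1 of 18 was at least 1.5-fold higher and 2 lower, beside 4.21% and 2.20% of all genes, with a median of 0.03, against -0.36 in classical monocytes. The chemokines Ccl3 and Ccl4 were at 0.15 and 0.16 in nonclassical cells and at -0.48 and -0.70 in classical monocytes. Cxcl2, a neutrophil attractant, was at 1816 and 1546 CPM, a log2 ratio of -0.23 (-0.30 to -0.16).

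Interferon-gamma response genes were lower as a group in the agonist library. Of 19 measured genes of the type II interferon list, none was at least 1.5-fold higher and 5 were at least 1.5-fold lower, beside 4.21% and 2.20% over all genes. The median log2 ratio was -0.43, 17 of the 19 were below 0, and for 14 the whole interval was below 0. Socs1, the feedback inhibitor of interferon receptors, was at 54.0 CPM in the isotype and 31.4 CPM in the agonist library, a log2 ratio of -0.78 (-1.27 to -0.30). Igtp, an immunity-related GTPase that acts on vacuoles of pathogens, was at 89.9 and 57.5 CPM, or -0.64 (-1.0 to -0.29). Serpina3g, a serine protease inhibitor, was at 101 and 62.9 CPM, or -0.68 (-1.02 to -0.34). Irf1, a transcription factor of the response, was at 417 and 314 CPM, or -0.41 (-0.57 to -0.25). Cd274, the PD-1 ligand PD-L1 and an interferon-gamma target, was at 264 and 209 CPM, or -0.34 (-0.53 to -0.14).

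Cxcl10 was at 137 and 84.1 CPM, or -0.70 (-0.99 to -0.41), but the value turned on single tables, at -0.16 without the third isotype table and -1.13 without the second isotype table. Igtp, Serpina3g and Gbp4 share 16.4%, 30.1% and 22.6% of their 31-base words with other genes, and Tgtp1 and Tgtp2 94.2% and 94.7%, so reads of these genes may be split among copies. Not every gene of the list was lower. Gbp4 was at 0.04 (-0.38 to 0.46) and Cxcl9 at 0.14 (-0.13 to 0.42) in nonclassical cells, with 1 agonist cell holding 33.8% of the Cxcl9 counts there. In classical monocytes all 24 measured genes of the list were below 0, with a median of -0.49, and Gbp4 and Cxcl9 were at -1.10 and -0.65. Gbp2, a guanylate-binding protein, was at -0.43 (-0.61 to -0.25) in nonclassical and -0.99 in classical monocytes. Ifi47, an immunity-related GTPase outside the list, was at 192 and 112 CPM in nonclassical cells, a log2 ratio of -0.78 (-1.03 to -0.53), and at -0.71 in classical monocytes. Type I interferon genes had a median of -0.16, with 22 of 28 below 0 and none beyond 1.5-fold.

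**Figure D5:**
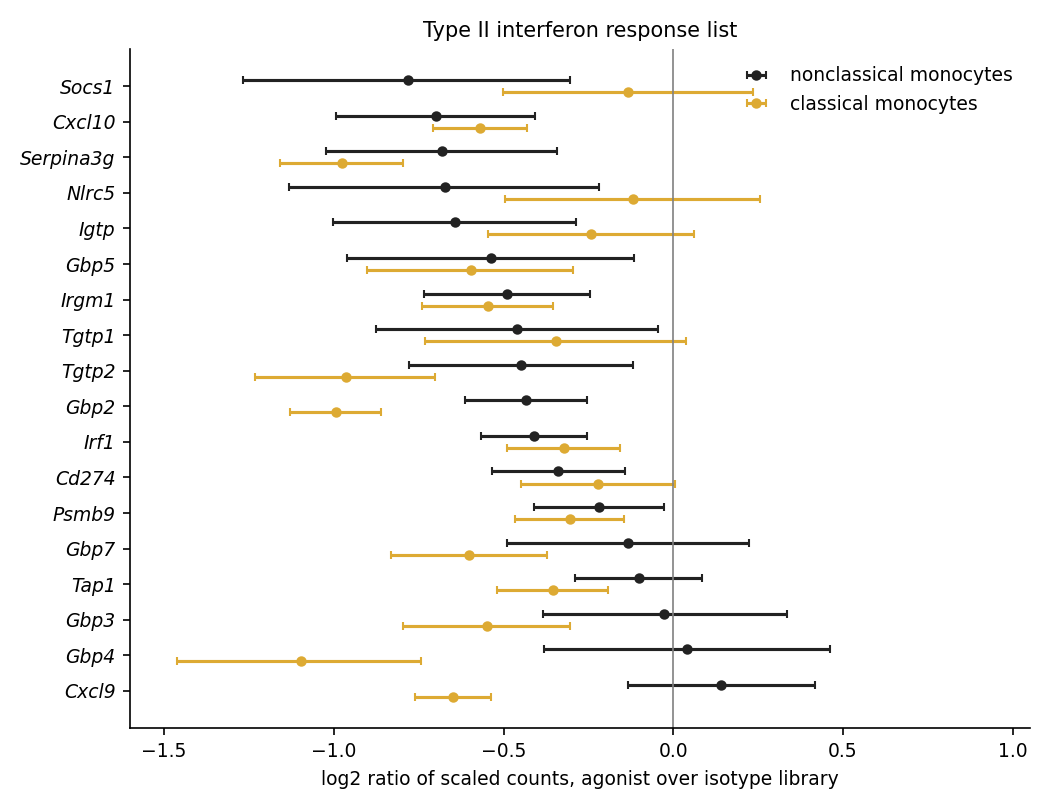
Log2 ratio of scaled counts, agonist over isotype library, for 18 measured genes of the type II interferon list in nonclassical (black) and classical (yellow) monocytes, with exact 95% intervals for counting error. In nonclassical cells 16 of the 18 points lie left of 0, and Gbp4 and Cxcl9 lie right of it at 0.04 and 0.14, against -1.10 and -0.65 in classical monocytes.

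Many interferon-gamma target genes carry a gamma-activated sequence in their promoters. The promoters of 4 genes of the list that hold a match are shown as examples, picked by hand. The 250 bases before each RefSeq gene start (GRCm38.p6) were searched for TTCNNNGAA, which reads the same on both strands in this form. Of 17 genes of the list with a RefSeq promoter, 8 (47.1%) held a match, against 2197 (8.13%) of 27025 genes. Gbp7, Irgm2, Tgtp1 and Tgtp2 also held a match and are not shown. The matches are in capitals, each window is on the plus strand, and a match is a string of letters and no evidence of binding.
Gbp5 chr3:142496684-142496933: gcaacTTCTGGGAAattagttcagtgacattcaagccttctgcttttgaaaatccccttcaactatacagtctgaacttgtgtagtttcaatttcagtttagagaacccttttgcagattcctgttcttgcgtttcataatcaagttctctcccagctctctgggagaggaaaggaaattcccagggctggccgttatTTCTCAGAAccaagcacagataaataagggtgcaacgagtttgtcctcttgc
Igtp chr11:58199306-58199555: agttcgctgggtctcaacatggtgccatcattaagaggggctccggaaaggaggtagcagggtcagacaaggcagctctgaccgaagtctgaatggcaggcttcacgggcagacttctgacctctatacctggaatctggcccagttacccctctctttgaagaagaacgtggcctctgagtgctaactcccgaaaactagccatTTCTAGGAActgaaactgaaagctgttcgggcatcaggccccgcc
Irf1 chr11:53769764-53770013: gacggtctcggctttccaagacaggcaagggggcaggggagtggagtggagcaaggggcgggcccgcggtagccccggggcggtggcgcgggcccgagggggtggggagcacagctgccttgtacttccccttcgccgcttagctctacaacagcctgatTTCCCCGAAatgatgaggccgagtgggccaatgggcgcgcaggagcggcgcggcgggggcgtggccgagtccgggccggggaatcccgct
Serpina3g chr12:104235897-104236146: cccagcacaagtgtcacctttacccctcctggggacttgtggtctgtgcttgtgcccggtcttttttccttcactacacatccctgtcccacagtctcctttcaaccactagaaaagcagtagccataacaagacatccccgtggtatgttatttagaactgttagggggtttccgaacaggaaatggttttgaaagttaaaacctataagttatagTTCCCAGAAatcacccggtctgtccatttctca
In Gbp5, a guanylate-binding protein, the matches began 245 and 52 bases before the start. In Igtp the match began 45 bases, in Irf1 90 bases (in 1 of its 2 RefSeq windows) and in Serpina3g 33 bases before it. These 4 genes had log2 ratios between -0.68 and -0.41 in nonclassical cells. The ratios of genes of the list with and without a match were not compared. The binding element of Nr4a1, AAAGGTCA on either strand, was in 419 (1.55%) of the 27025 genes and in none of the 22 identity genes or of the 11 genes named as higher in nonclassical cells that had a RefSeq promoter. Of the 11 genes named as lower with such a promoter, 1 (9.09%), F7, held it.

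On the higher side, Fabp5 was the first gene by the naming rule. Fabp5, a fatty acid carrier (chr3:10012548-10016607, plus strand), was at 65.6 CPM (53.8 to 79.2) in the isotype and 128 CPM (113 to 144) in the agonist library, a log2 ratio of 0.96 (0.63 to 1.30). It was at 0.66 (0.48 to 0.85) in classical monocytes. Pltp, which transfers phospholipids between lipoproteins, was at 74.7 and 117 CPM, or 0.65 (0.33 to 0.97), and at 0.54 without the first agonist table, under 1.5-fold. Of 25 measured genes of scavenging and lipid handling these 2 were at least 1.5-fold higher and none lower, beside 4.21% and 2.20% of all genes, with a median of 0.05. The glycolytic enzymes Eno1 and Pgk1 were at 1.01 (0.75 to 1.27) and 0.97 (0.59 to 1.38) in nonclassical cells, and at 0.87 and 0.79 in classical monocytes, but they share 77.2% and 68.3% of their 31-base words with other genes. Hexokinase 2 (Hk2), which traps glucose in the cell, was lower in nonclassical cells, at 72.2 and 41.6 CPM, a log2 ratio of -0.80 (-1.21 to -0.38), and was at 0.25 in classical monocytes. Without the third isotype table it was at -0.56, under 1.5-fold. Insr, the insulin receptor, was at 18.8 and 40.6 CPM, or 1.11 (0.50 to 1.75), and at 0.06 in classical monocytes. Of 16 measured glycolysis genes 2 were higher and 1 was lower by 1.5-fold or more. Their median was 0.08, and that of 33 oxidative phosphorylation genes -0.03.

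The other named genes on the higher side had varied roles. Kpna4, an importin that carries proteins into the nucleus, was at 232 CPM (209 to 256) and 353 CPM (328 to 379), with a log2 ratio of 0.61 (0.43 to 0.79) in nonclassical and 0.02 (-0.19 to 0.23) in classical monocytes. Outside the monocytes, Kpna4 was at 129 and 170 CPM in Cd3e-positive cells and at 122 and 148 CPM in interstitial macrophages, also higher in the agonist library. In nonclassical cells Kpna4 lies close to the 1.5-fold limit and was at 0.49 without the second isotype table. Dusp5, a nuclear phosphatase of ERK, was at 368 and 513 CPM, or 0.48 (0.34 to 0.63), under 1.5-fold, and at 0.14 (-0.07 to 0.35) in classical monocytes. Both genes had a count in most of the cells, with 54.3% and 68.0% for Kpna4 and 68.4% and 75% for Dusp5. Gng5, a G protein gamma subunit, was at 0.50 in nonclassical and 0.43 in classical monocytes, also under 1.5-fold. Il7r, the interleukin 7 receptor, was at 1.07 on 28 and 74 counts, in 4.28% and 4.73% of cells, so its ratio rests on few cells, and it was at 0.50 without the second isotype table. Dctn1, a dynactin subunit, Ubl7, Nck1, an SH2 adaptor, Slc15a2, a peptide transporter, and Arhgap31, a GTPase-activating protein, were between 0.72 and 1.09, with Arhgap31 at 0.46 without the second isotype table. In classical monocytes Slc15a2 was at 1.12, against 0.95 in nonclassical cells. The classical values of the others were 0.60 for Dctn1, 0.56 for Ubl7, -0.16 for Nck1 and 0.43 for Arhgap31.

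On the lower side, Mt1, a metal-binding metallothionein, was at 274 CPM (250 to 301) and 168 CPM (151 to 186), a log2 ratio of -0.71 (-0.92 to -0.51). It was at 0.14 (0.04 to 0.24) in classical monocytes, so the values had opposite signs in the classes, a difference that was not tested. With the record of lowest total kept for each barcode Mt1 was at -0.41, under 1.5-fold. Rhob, a small GTPase of vesicle traffic, was at 171 and 111 CPM, or -0.62 (-0.88 to -0.36), and at -0.47 in classical monocytes, with -0.50 without the first isotype table. Manf, a chaperone of the endoplasmic reticulum, was at -0.63 (-0.56 without the third isotype table and -0.52 without the second agonist table) and Scpep1, a carboxypeptidase, at -0.85. Esrra, a nuclear receptor of mitochondrial genes, Smad7, the inhibitor of TGF-beta signals, Fam114a2 and Dhx8, an RNA helicase of splicing, lay between -0.91 and -0.88. Of 12 measured heat shock genes 1, Hspa8, was at least 1.5-fold lower and none higher, beside 2.20% and 4.21% of all genes, and for 5 the whole interval was below 0. The medians were -0.27 in nonclassical and -0.28 in classical monocytes. Hspa8, the constitutive Hsc70, was at 1080 and 670 CPM, or -0.69 (-0.79 to -0.59), with 59.4% of its 31-base words shared with other genes. Fos, an immediate early factor, was at -0.44 and Dusp1 at -0.28. The 24 measured immediate early genes had a median of -0.09, with none beyond 1.5-fold.

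Markers of other cell types moved with the libraries and stand beside these results. T cell markers summed to 67.4 CPM in isotype and 104 CPM in agonist nonclassical cells, NK cell markers to 78.9 and 161 CPM, and B cell markers to 274 and 185 CPM. Conventional dendritic cell markers summed to 55.2 and 83.6 CPM, with Xcr1 at 0 in both libraries, where a count of 0 allows up to 1.82 and 1.45 CPM (3 counts in each library, for counting error only). Interstitial macrophage markers, which summed to 1239 and 1280 CPM, were nearly all Apoe, at 1174 and 1217 CPM, with Mrc1 at 12.1 and 5.32 CPM. The alveolar macrophage list summed to 1972 and 1490 CPM through Chil3, with Marco, Fabp1 and Krt79 at 0. Neutrophil markers, with Cxcr2 at 0 by the rule, summed to 1418 and 3560 CPM. Of 10 measured ones, 6 were at least 1.5-fold higher in the agonist library, beside 4.21% of all genes, with a median log2 ratio of 1.69. The top 2 agonist cells held 48.1% of the neutrophil-marker counts. Without the 12 isotype and 16 agonist cells in which these markers made up 1% or more of the counts, a step added after seeing the data, the sums were 779 and 672 CPM and the median -0.14 over 6 measured genes. The numbers of genes beyond 1.5-fold were then 211 higher and 130 lower, and 201 and 106 of these genes were also beyond 1.5-fold with all cells. The part of the other marker lists in the differences between the libraries was not tested.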

How the data were processed

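Lung CD45+ cells of isotype-treated and PD-1 agonist-treated mice were profiled by 10x Genomics droplet sequencing. The authors deposited 6 tables of expected counts, 1 record per cell and 20882 gene columns, of which 20510 matched a gene model. Expected counts are estimated counts that need not be whole, and sums over cells were rounded to whole numbers here. Per the file headers, each record also holds a total count, the number of expressed genes, and mitochondrial and ribosomal content in percent, all by the authors. Partek and mm10 are named in the submitters' processing notes, and the sources used here name no aligner or counter and do not say how molecular identifiers were handled. Hashtag measurements were not used here.

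Total counts per table ran from 22202875 to 30608477, over 6393 to 6749 records. The tables held 12448 isotype and 13728 agonist distinct barcodes, against about 50000 cells per group stated in the labels. For each treatment the record with the highest total was kept per barcode, and cells with 500 to 4000 expressed genes and a total of at most 15000 were used. Because tables of a treatment shared barcodes, each treatment was 1 sample, and a planned comparison of replicates was replaced by values with exact intervals: Clopper-Pearson for shares, Poisson for CPM and conditional binomial for ratios, at 95%. Counts were summed per class and library and scaled with TMM factors (edgeR 4.0.16 under R 4.3.3, used for scaling only). Genes needed 100 counts, and no p-value was computed. Of these steps, the ratio and its interval were tested on simulated Poisson sums with known changes. The simulation held no spread between cells, and the choice of cells and the TMM scaling were not part of it.

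Genes were named by the interval bound nearest 0, the 15 leading in each direction between classes (using the smaller of the 2 libraries) and the 12 leading between libraries. Genes that were not protein-coding, belonged to the ribosome, mitochondria, histones, haemoglobins or receptor segments, were used by a rule, shared 10% or more of their 31-base words with another gene, or had 25% or more of their counts in 1 cell were not named this way. Any gene of the gene lists could be named in addition. The members, the lists and the rules were chosen with earlier results of these data known. Alternatives were each table left out, Scrublet doublets removed (scanpy 1.11.5, rate 0.1, score over 0.25), the lowest-total record, 4 of 7 markers, cells thinned to 1500 counts, C1qa not detected, other scalings and count minimums, and the top cell of each gene left out. Some genes of the lists are counted but not reported by name here. Promoter windows are RefSeq sequences on GRCm38.p6.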

Additional observations from a re-analysis of the deposited data

How the results depend on the processing

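No paired analysis was possible because the tables of a treatment share cells and so are not separate samples. The log2 ratio of the share of kept cells was between 0.28 and 0.38 with each table left out and that of the ratio to classical monocytes between 0.40 and 0.52. With each table left out, 196 to 241 genes were at least 1.5-fold higher and 107 to 139 lower in the agonist library, and 144 to 177 genes were at least 2-fold higher and 106 to 130 lower in nonclassical than in classical monocytes. Cells thinned to 1500 counts gave 102 and 54 genes between the libraries and 97 and 80 between the classes, with fewer genes over the minimum. A minimum of 50 counts gave 423 higher and 258 lower between the libraries, and no minimum gave 2354 and 1774 between the libraries and 521 and 435 between the classes. The median of the neutrophil markers was -0.14 in place of 1.69 without the members rich in them, an alternative added after seeing the data. Some medians near 0 also changed sign, such as that of MHC class II presentation from -0.06 to 0.15 after thinning. Every gene named between the classes stayed beyond 2-fold under the alternatives run for single genes. Of the 24 genes named between the libraries, Dusp5 at 0.48 and Gng5 at 0.50 were under 1.5-fold before any alternative was applied. Of the others, 13 came from beyond to under 1.5-fold under at least 1 of the alternatives. With the lowest-total record these were Kpna4 at 0.55, Nck1 at 0.49, Mt1 at -0.41, Scpep1 at -0.51, Esrra at -0.52, Fam114a2 at -0.48, Hk2 at -0.55, Rhob at -0.49 and Manf at -0.43. The type II interferon median lay below 0 under each of the 16 alternatives run for lists (all but C1qa not detected, which was run for the shares only), and that of the classical monocyte genes, -0.16, was 0.02 after thinning.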

Other observations

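A set of cells next to the nonclassical monocytes carried both monocyte and neutrophil RNA. These were the 135 isotype and 144 agonist cells that met the marker part of the rule but had a count of Cxcr2, the chemokine receptor of neutrophils. Csf1r, the M-CSF receptor of monocytes, was detected in 94.8% and 90.3% of them and Nr4a1 in 94.8% and 93.8%. The neutrophil genes S100a8, a calprotectin subunit, and Retnlg, a resistin-like protein, were detected in 92.6% and 91.0%, and in 62.2% and 60.4%. In the nonclassical monocytes S100a8 was detected in 19.5% and 24.5% and Retnlg in 3.48% and 6.31%. Other Cxcr2-positive cells, without Ace, Treml4 or Cd300e, numbered 1879 and 2322, with Csf1r in 26.1% and 23.2% and Nr4a1 in 45.3% and 42.2%. The median totals per cell were 6839 and 6645 counts in the removed cells, 4130 and 3778 in the nonclassical monocytes and 1971 and 1744 in the other Cxcr2-positive cells. Scrublet marked 26 (19.3%) and 43 (29.9%) of the removed cells as doublets, against 13.7% and 15.7% of the other Cxcr2-positive cells, and the part of doublets was not tested.

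The receptor that the agonist targets was near the limit of detection in these monocytes. Pdcd1, the mouse gene of PD-1, had 5 counts in 374 isotype and 10 counts in 507 agonist nonclassical cells, or 3.04 and 4.83 CPM. Whether transcripts of the humanized gene are counted in that column is not given in the sources used here. Among other checkpoint genes, Havcr2, which encodes TIM-3, was at 164 and 204 CPM, a log2 ratio of 0.32 (0.10 to 0.54) in nonclassical and -0.03 in classical monocytes. Vsir, which encodes VISTA, was at 296 and 277 CPM, and the costimulatory ligand Cd86 at 107 and 104 CPM. Cell cycle genes had few counts, with Mki67 at 5.46 and 2.90 CPM on 9 and 6 counts and Top2a at 5.46 and 10.6 CPM on 9 and 22 counts.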
